A study of Homo sapiens with 9 samples.

Results

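The mitochondrial ribosomal protein genes were followed as 1 family through a knockdown experiment in human cells. Members were the genes of the expression table whose symbol is MRPL or MRPS with a number and at most 1 closing letter (A to C). The rule found 78 of the 17529 genes in the table, 49 MRPL genes named for the large subunit and 29 MRPS genes named for the small subunit. All 78 passed the filter on low counts, which kept 13129 genes. In the RefSeq annotation 77 coding genes match the same rule, and all 77 are in the table. The remaining symbol, MRPS36, is an older name of a gene now known to encode a subunit of the oxoglutarate dehydrogenase complex, and it is kept here as the table names it.

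RNA was sequenced from 9 cultures labelled NCI-H69, a line from a small cell lung cancer, 48 hours after siRNA transfection. There were 3 biological replicates in each of 3 groups. The control group (NC) was given a negative control siRNA. In the si_CSNK2B group the siRNA targets CSNK2B, which encodes the beta subunit of the kinase CK2, and in the si_P300 group it targets the histone acetyltransferase P300, product of EP300. No group was left untransfected, so every difference is read between cultures that all received an siRNA. Total counts were 13.1 to 18.3 M per library, and a count of 0 allows 0.165 to 0.223 CPM (counts scaled to library size), for counting error only.

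The checks of the labels limit what the groups stand for. The mean level of CSNK2B was 182 ± 12.8 CPM with the control siRNA, against 152 ± 14.6 and 156 ± 7.47 CPM with si_CSNK2B and si_P300 (SD, n = 3), and that of EP300 was 45.2, 37.5 and 36.8 CPM in the same order. Neither target passed the test in its own group (edgeR adjusted p = 0.0732 for CSNK2B and 0.101 for EP300), so the group names below are those of the labels. The neuroendocrine markers of small cell lung cancer read here (CHGA, SYP, NCAM1 and DLL3) were each under 1 CPM in every group, with a sum of 0.713 to 1.42 CPM over the libraries. Markers of simple epithelium summed to 5850 to 6700 CPM in NC, 5060 to 5610 in si_CSNK2B and 4870 to 5520 in si_P300. The lower sums do not hold for each gene. In each comparison with NC, 1 of the 5 was called lower and 3 had a log2 fold change above 0 (medians 0.11 and 0.06). Of the leukocyte markers read here, PTPRC and CD14 were under 1 CPM, and LYZ made up nearly the whole sum of 2250 to 2440 CPM in NC, 3590 to 3660 in si_CSNK2B and 2820 to 4440 in si_P300. Intestinal epithelium markers summed to 565 to 660 CPM in NC, 543 to 640 in si_CSNK2B and 565 to 596 in si_P300, with GPA33 under 1 CPM. Of the 4 tested, 1 rose and 1 fell in each comparison with NC. Fibroblast markers summed to 46.7 to 62.7 CPM over the libraries, with COL1A2, DCN and PDGFRB under 1 CPM. The endothelial markers were all under 1 CPM. The part of these marker differences in the results below was not tested.

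Mitochondria carry their own ribosome, the mitoribosome, which translates the few messages of mitochondrial DNA into core subunits of the respiratory chain and of ATP synthase. Its ribosomal RNA is encoded in the mitochondrion, but all of its proteins are encoded in the nucleus, made in the cytosol and imported. Many members descend from bacterial ribosomal proteins and the others were gained in the mitochondrial lineage. The small subunit reads the message, and the large subunit joins the amino acids.

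The members were mostly expressed at a fairly high level, over a 27.2-fold range from lowest to highest in FPKM. Per transcript length, the median member stood at 45.2 FPKM in NC (quartiles 31.5 and 66.5), against 4.38 FPKM for the median gene of the table. The latter takes in the genes that the filter removed, while all members passed it. Of the 78 members, 53 lay within 2-fold of the family's median. MRPL genes had a median level of 50.9 FPKM and MRPS genes 37.7 FPKM. The highest were MRPL3 (136 ± 6.55 FPKM), a protein near the peptidyl transferase centre, MRPL52 (124 FPKM), MRPL18 (106 FPKM), a protein of the central protuberance, and MRPL51 (105 FPKM). The lowest were MRPL23 (4.99 ± 2.14 FPKM), a protein of the exit tunnel, MRPL42 (5.62 FPKM), MRPL19 (7.94 FPKM) and MRPS33 (8.77 FPKM).

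The order of levels is mostly a gentle slope. Of the 77 pairs of neighbours in the order, 71 had overlapping NC libraries and 6 did not. MRPL42, MRPL19 and MRPS33, low per transcript length, stood at 92.1 ± 1.76, 65.2 ± 4.60 and 38.7 ± 3.52 CPM without the length scale. By the GENCODE 29 annotation their median coding transcripts are 920, 718.5 and 744 bases long. Members of near-equal CPM and annotated length read far higher in FPKM. These were MRPL16 (92.9 CPM, 878 bases, 85.0 FPKM), MRPL20 (61.9 CPM, 721 bases, 87.0 FPKM) and MRPL27 (35.5 CPM, 737 bases, 52.7 FPKM). The low FPKM of MRPL42, MRPL19 and MRPS33 thus do not rest on these annotated lengths. The lengths behind the deposited FPKM are not given in the sources used here. MRPL23 was low on both scales. The CPM of MRPL23, replicate by replicate, were 5.17, 3.20 and 2.10 with NC siRNA, then 3.38, 5.42 and 2.20 for si_CSNK2B, then 2.64, 3.10 and 3.55 for si_P300, so the 3 groups overlapped. The gene overlaps MRPL23-AS1 on the opposite strand, and the strand setting of the counting is not given in the sources used here.

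**Figure D1:**
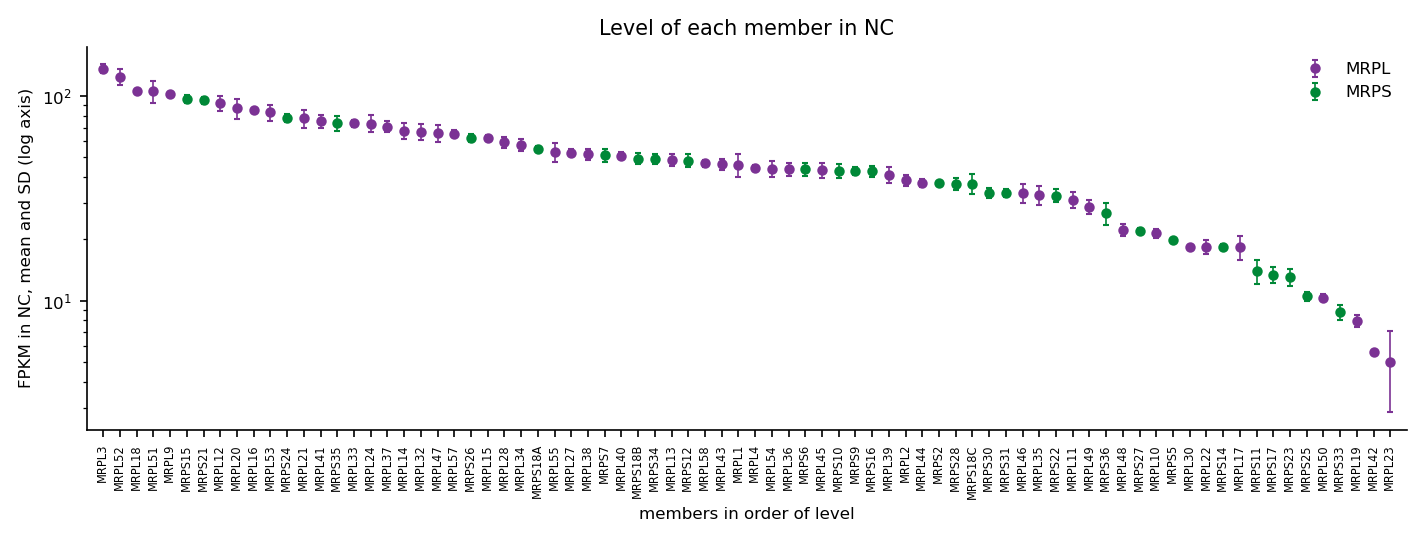
Deposited FPKM of the 78 members in NC on a log axis, as mean and SD of 3 libraries, in order of level and coloured by the letter in the symbol. Levels run from 136 FPKM (MRPL3) to 4.99 FPKM (MRPL23), with a family median of 45.2 FPKM.

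Against NC, the family split into small rises and small falls in both knockdowns. In si_CSNK2B, 16 members rose and 9 fell, which is 32.1% of the family, beside 34.0% of all tested genes (16.2% higher and 17.8% lower). In si_P300, 8 members rose and 4 fell, which is 15.4% of the family, beside 28.3% of all tested genes (13.6% higher and 14.7% lower). A change was called at an edgeR adjusted p under 0.05 over all tested genes. On this scale (TMM factors), the share called in si_CSNK2B was near that of all genes, and the share in si_P300 was lower. By library size alone, 48.7% of the members were called in si_CSNK2B, beside 38.2% of all tested genes. In si_P300 the shares were then 33.3% and 31.9%, so the comparison with all genes depends on the scaling. Whether fewer cells of a type or less RNA per cell lies behind a lower level cannot be told apart in these bulk samples.

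The changes were small in size. No member reached a log2 fold change of 1 in either direction with a call, beside 8.21% of all genes in si_CSNK2B and 5.75% in si_P300. The median size of change, without its sign, was 0.20 on the log2 scale in si_CSNK2B and 0.18 in si_P300, beside 0.32 and 0.29 for all tested genes. With its sign, the median member changed by 0.05 in si_CSNK2B and 0.03 in si_P300, and the median tested gene by 0.04 in both. Libraries of the 2 groups did not overlap for 35 members in si_CSNK2B (25 higher and 10 lower, beside 53.0% of all genes). They did not overlap for 36 members in si_P300 (23 higher and 13 lower, beside 46.5%). At an unadjusted p under 0.05 there were 31 members in si_CSNK2B, beside 45.0% of all genes, and 22 in si_P300, beside 40.4%.

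The split between rises and falls depends on the scaling of the libraries. NC had lower TMM factors (0.940 to 0.954) than the knockdowns (1.01 to 1.06), and by library size alone 31 members rose and 7 fell in si_CSNK2B, and 22 rose and 4 fell in si_P300. The same scaling moved the median of all genes to 0.16 and 0.15, and the share of higher calls among all called genes from 47.6% to 66.0% in si_CSNK2B and from 48.1% to 66.0% in si_P300. Values below are on the TMM scale, and the direction of each called member was the same on both scales.

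**Figure D2:**
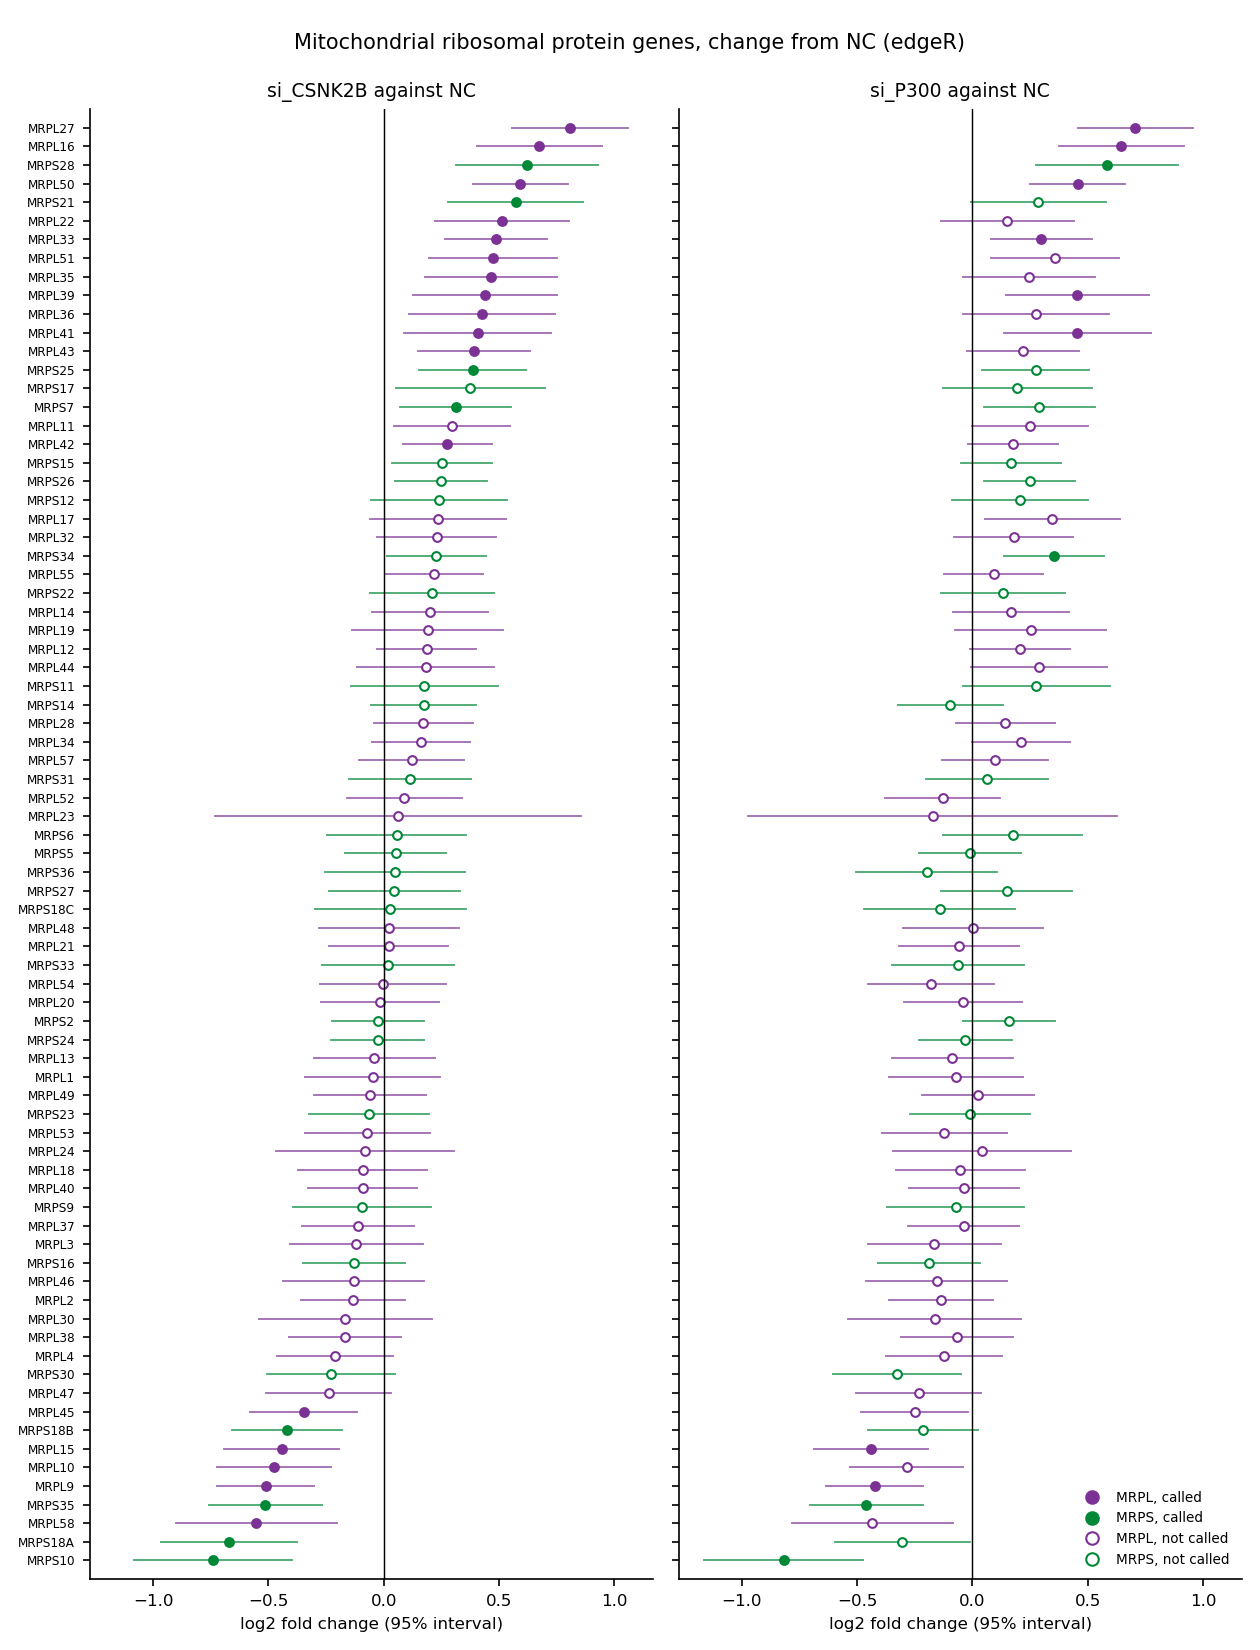
Change of each of the 78 members from NC in si_CSNK2B (left) and si_P300 (right), as edgeR log2 fold change with its 95% interval, ordered by the left panel. Filled points passed an adjusted p under 0.05, which was so for 25 members on the left and 12 on the right, and no called change reaches 1 in size.

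The medians of the MRPL and MRPS genes lay close together, and the counts were as follows. Of the 49 MRPL genes, 12 rose and 5 fell in si_CSNK2B (34.7% called), with a median log2 fold change of 0.06. Of the 29 MRPS genes, 4 rose and 4 fell (27.6% called), with a median of 0.05. Among all tested genes 34.0% were called, with a median of 0.04. In si_P300, 6 MRPL genes rose and 2 fell (16.3% called, median 0.02), and 2 MRPS genes rose and 2 fell (13.8% called, median 0.06). All tested genes there had 28.3% called and a median of 0.04. The difference of the medians, large minus small, was 0.01 in si_CSNK2B and -0.04 in si_P300, and its sign turned with single libraries left out, over a range of -0.04 to 0.03 and -0.10 to 0.02. Structures of the human mitoribosome place MRPS18A and MRPS30 in the large subunit in spite of their names. With those 2 moved and MRPS36 left out, the large subunit had 12 higher and 6 lower of 51 in si_CSNK2B (median 0.02), and the small subunit 4 and 3 of 26 (median 0.09). In si_P300 the large subunit then had 6 higher and 2 lower (median 0.0032), and the small subunit 2 and 2 (median 0.14), a difference of -0.14.

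Descent and place in the ribosome were described in the same way. Of the 45 members with a bacterial counterpart, 9 rose and 4 fell in si_CSNK2B (28.9% called, median 0.06). Of the 32 classed as mitochondria-specific, 7 rose and 5 fell (37.5% called, median 0.03), beside 34.0% of all tested genes. The 32 include MRPS18A and MRPS18B, which are paralogs of a bacterial protein and both fell in si_CSNK2B, so this split is not strictly one of descent. In si_P300 the counts were 4 and 3 (median 0.14) against 4 and 1 (median 0.01). This was 15.6% called in each class, beside 28.3% of all tested genes. Of the 4 proteins near the peptidyl transferase centre and the tRNA sites, MRPL16 and MRPL27 rose in both comparisons, while MRPL2 and MRPL3 were not called. None of the 5 members of the central protuberance was called in either comparison, with log2 fold changes of -0.17 to 0.02 in si_CSNK2B. In si_CSNK2B, 1 of 3 listed stalk proteins fell, and of 5 listed exit tunnel proteins 1 rose and 1 fell. Of 4 proteins listed for the small subunit head, 1 rose and 1 fell. In si_P300 the only call among the members listed for those 3 sites was 1 fall in the head. The single member at the decoding centre was not called in either comparison. These sites were chosen after the values were seen. Only part of the family was given a site, so the counts hold for the listed members and not for every protein at a site. No difference between these groups was tested.

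Both comparisons with NC share the NC libraries, so their values stand side by side and are not independent. Called in both were 11 members, 7 higher (MRPL16, MRPL27, MRPL33, MRPL39, MRPL41, MRPL50 and MRPS28) and 4 lower (MRPL9, MRPL15, MRPS10 and MRPS35). Another 14 were called in si_CSNK2B only and MRPS34 in si_P300 only, and 52 were called in neither. Taken singly, the comparisons called 34.0% and 28.3% of all tested genes. The share of all tested genes called in both is not given here, so the 11 members stand without that background. Leaving out any 1 library and changing the tool, filter, unit or scaling left MRPL16, MRPL27, MRPL50, MRPS28, MRPL9 and MRPS10 called in both comparisons in all 19 alternatives.

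MRPL27 had the largest rise of the family in both comparisons. It is the counterpart of a bacterial protein whose end reaches toward the peptidyl transferase centre. CPM values of the gene were 35.1, 34.1 and 37.3 under the control siRNA, 66.7, 55.6 and 64.1 under si_CSNK2B, and 53.8, 65.6 and 54.5 under si_P300. Every knockdown library was above every NC library. The log2 fold change was 0.81 ± 0.115 (SE, edgeR adjusted p = 0.000312) in si_CSNK2B and 0.71 ± 0.115 (edgeR adjusted p = 0.00101) in si_P300.

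MRPL16, which lies beside the tRNA sites of the large subunit, read 94.96, 92.3 and 91.5 CPM in NC. It read 175, 145 and 125 CPM in si_CSNK2B and 132, 149 and 155 in si_P300. The NC libraries lay close together and below all 6 others. The log2 fold change was 0.67 ± 0.124 (edgeR adjusted p = 0.00168) and 0.65 ± 0.124 (edgeR adjusted p = 0.00288).

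MRPL50, a protein without a bacterial counterpart, and MRPS28, a small subunit protein named bS1m in structures, followed. The CPM of MRPL50, replicate by replicate, were 35.1, 34.8 and 37.7 with NC siRNA, then 56.7, 51.4 and 54.2 for si_CSNK2B, then 48.1, 50.8 and 48.8 for si_P300. CPM values of MRPS28 were 29.5, 29.9 and 33.8 under the control siRNA, 53.9, 37.5 and 51.9 under si_CSNK2B, and 42.5, 50.4 and 46.8 under si_P300. Neither gene had an NC library that reached a knockdown library. Their log2 fold changes were 0.59 and 0.62 in si_CSNK2B and 0.46 and 0.58 in si_P300. The other 3 that rose in both, MRPL33, MRPL39 and MRPL41, changed by 0.41 to 0.49 in si_CSNK2B and 0.30 to 0.46 in si_P300. The calls of MRPL39 and MRPL41 in both comparisons, and that of MRPL33 in si_P300, were lost without any one of the 3 NC replicates. Those of MRPL39 and MRPL41 in si_P300 were also lost without si_P300 replicate 2 or 3. In si_CSNK2B, leaving out replicate 1 ended the call of MRPL39, and leaving out any si_CSNK2B library or si_P300 replicate 3 ended that of MRPL41. The call of MRPL33 in si_P300 was also lost without any si_P300 library and without si_CSNK2B replicate 2 or 3.

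MRPS10 had the largest fall of the family in both comparisons. It is a protein of the small subunit head with a bacterial counterpart. The CPM of the gene, replicate by replicate, were 89.4, 88.4 and 103 with NC siRNA, then 69.8, 54.2 and 44.1 for si_CSNK2B, then 58.4, 55.0 and 45.9 for si_P300. All 6 knockdown libraries were below the NC libraries, with a wide spread among the si_CSNK2B replicates. The log2 fold change was -0.74 ± 0.158 (edgeR adjusted p = 0.00387) in si_CSNK2B and -0.82 ± 0.158 (edgeR adjusted p = 0.0029) in si_P300.

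MRPL9, counterpart of the bacterial L9 protein, fell with less spread. CPM values of the gene were 127, 121 and 129 under the control siRNA, 90.2, 82.0 and 92.1 under si_CSNK2B, and 86.8, 97.3 and 96.98 under si_P300, with no overlap. The log2 fold change was -0.51 ± 0.096 (edgeR adjusted p = 0.0018) and -0.42 ± 0.096 (edgeR adjusted p = 0.00683). MRPS35 is a small subunit protein gained in the mitochondrial lineage. The CPM of MRPS35, replicate by replicate, were 129, 133 and 152 with NC siRNA, then 108, 91.2 and 90.7 for si_CSNK2B, then 97.9, 93.8 and 109 for si_P300. CPM values of MRPL15 were 108, 103 and 113 under the control siRNA, 92.3, 70.4 and 74.95 under si_CSNK2B, and 77.0, 83.9 and 77.4 under si_P300. Both fell in each comparison, with log2 fold changes of -0.51 to -0.44. When NC replicate 3 was left out, MRPL15 was no longer called in either comparison and MRPS35 was no longer called in si_P300, and the call of MRPL15 in si_P300 was also lost without NC replicate 1.

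**Figure D3:**
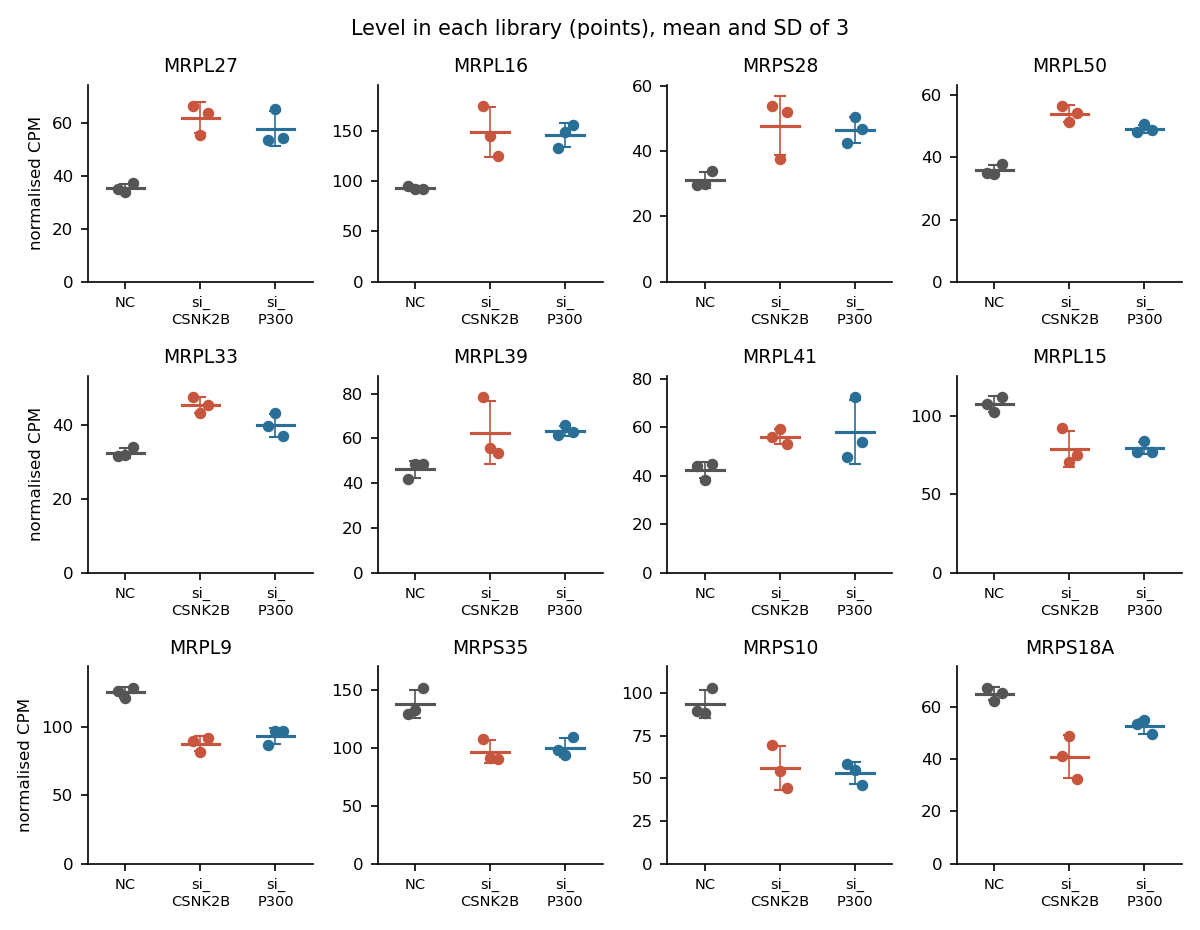
TMM-normalised CPM per library for the 11 members called in both comparisons with NC and for MRPS18A, with points for libraries, horizontal lines for the mean and bars for the SD of 3. For each gene shown the NC libraries lie wholly above or wholly below those of both knockdowns, for example MRPL27 at 34.1 to 37.3 CPM in NC against 53.8 to 66.7 CPM in the other 6 libraries.

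Among the members called with si_CSNK2B only, 9 rose. The largest were MRPS21 (0.57 ± 0.134, edgeR adjusted p = 0.00676) and MRPL22, which lines the exit tunnel (0.51 ± 0.132, edgeR adjusted p = 0.0113). MRPL51, MRPL35, MRPL36, MRPL43, MRPS25, MRPS7 and MRPL42 rose by 0.28 to 0.47. Single libraries decided many of these calls. Without NC replicate 2, MRPL22 and each of the other 7 were not called, and without si_CSNK2B replicate 1 the same was true of MRPL51, MRPL35, MRPL36, MRPS25, MRPS7 and MRPL42. Without NC replicate 1 the calls of MRPL35, MRPL36, MRPL42, MRPL43, MRPL51 and MRPS7 were lost, without NC replicate 3 those of MRPL36, MRPL42, MRPS7 and MRPS25, and without si_CSNK2B replicate 3 those of MRPL36, MRPL42, MRPL43 and MRPS7. MRPS7 also lost its call without si_CSNK2B replicate 2, and MRPL36 and MRPS7 without si_P300 replicate 3. MRPS21 was called in all 19 alternatives. MRPS34, a mitochondria-specific small subunit protein, rose in si_P300 (0.35 ± 0.099, edgeR adjusted p = 0.0198) and stood at 0.23 in si_CSNK2B (edgeR adjusted p = 0.0939). Its call was lost without any one NC replicate.

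The 5 members that fell with si_CSNK2B only include several with a special role. MRPL58 is a peptidyl-tRNA hydrolase built into the large subunit that can free stalled ribosomes. The CPM of the gene, replicate by replicate, were 40.2, 41.3 and 43.8 with NC siRNA, then 37.4, 23.7 and 24.1 for si_CSNK2B, then 31.0, 32.6 and 29.2 for si_P300. One si_CSNK2B library lay close to NC and the other 2 well below it. The log2 fold change was -0.55 ± 0.160 (edgeR adjusted p = 0.0197) in si_CSNK2B and -0.43 ± 0.159 (edgeR adjusted p = 0.0609) in si_P300. MRPL10 anchors the copies of MRPL12 on the stalk that recruits translation factors, and it fell by 0.48 in si_CSNK2B (edgeR adjusted p = 0.0073). MRPL12 itself, which is also known to bind the mitochondrial RNA polymerase, stood at 0.19 and 0.21 and was not called in either comparison. MRPL45, which ties the large subunit to the inner membrane, fell by 0.35 in si_CSNK2B (edgeR adjusted p = 0.0255). The call of MRPL45 was lost without NC replicate 1 or 3 or si_CSNK2B replicate 2 or 3, and that of MRPL58 without NC replicate 3 or si_CSNK2B replicate 2 or 3.

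The 3 MRPS18 genes are paralogs of 1 bacterial protein that sit at different places: MRPS18C at the bacterial position, MRPS18B elsewhere in the small subunit and MRPS18A in the large subunit. CPM values of MRPS18A were 67.4, 62.4 and 65.5 under the control siRNA, 41.4, 49.03 and 32.4 under si_CSNK2B, and 53.6, 55.0 and 49.5 under si_P300. The CPM of MRPS18B, replicate by replicate, were 71.0, 65.6 and 75.1 with NC siRNA, then 52.9, 46.4 and 58.9 for si_CSNK2B, then 63.7, 59.8 and 58.9 for si_P300. CPM values of MRPS18C were 55.9, 53.7 and 66.8 under the control siRNA, 74.7, 49.7 and 55.4 under si_CSNK2B, and 49.6, 52.5 and 57.8 under si_P300. Thus MRPS18A and MRPS18B lay below NC in all 6 knockdown libraries, and MRPS18C overlapped with NC in both groups. MRPS18A fell by 0.67 (edgeR adjusted p = 0.00284) and MRPS18B by 0.42 (edgeR adjusted p = 0.0121) in si_CSNK2B, and the log2 fold change of MRPS18C was 0.03 (edgeR adjusted p = 0.897). In si_P300 the values were -0.30, -0.21 and -0.14, and none was called. The call of MRPS18B was lost without NC replicate 3, and the differences between the paralogs were not tested. MRPS30, the other large subunit protein under a small subunit name, stood at -0.23 and -0.33, and MRPS36 at 0.05 and -0.20, all without a call.

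Set directly against each other, the knockdowns gave no called member and no called gene (edgeR). DESeq2 called 8 genes, none of them a member. At an unadjusted p under 0.05 there were 3 members (MRPS18A, MRPL22 and MRPS14), beside 5.03% of all tested genes. Libraries did not overlap for 9 members, 5 higher and 4 lower in si_CSNK2B, beside 7.14% of all genes. The members called in only 1 comparison with NC are therefore not shown to differ between the knockdowns. For MRPS18A, si_CSNK2B minus si_P300 was -0.37 on the log2 scale, with a 95% interval of -0.66 to -0.07 that is not adjusted for the number of genes (edgeR adjusted p = 0.946).

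The family also shifted as a body between libraries of 1 group. Relative to the NC mean, the median member stood at -0.01, -0.08 and 0.09 on the log2 scale in NC replicates 1 to 3. It stood at 0.21, -0.01 and -0.02 in the si_CSNK2B replicates and at -0.05, 0.11 and 0.09 in the si_P300 replicates. The si_CSNK2B replicate 1 library stood apart, with 62 of 78 members above the NC mean, against 38 and 36 in its 2 replicates. In NC, 8 members lay above the mean in replicate 2 and 71 in replicate 3. The median of all tested genes lay between -0.0046 and 0.034 in every library. Large minus small subunit medians lay between -0.045 and 0.028 in every library.

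These shifts bear on the counts of rises. Without si_CSNK2B replicate 1, 8 members rose and 11 fell in si_CSNK2B. Without NC replicate 2, 6 rose and 9 fell, and without NC replicate 3, 10 rose and 5 fell. In si_P300 the members that rose numbered 4 to 11 and those that fell 2 to 5 with single libraries left out. As a share of all counts, the members made up 0.461% ± 0.0226 in NC, 0.525% ± 0.0420 in si_CSNK2B and 0.510% ± 0.0229 in si_P300. These shares are not scaled by TMM, and the si_P300 libraries (0.486% to 0.532%) just exceed those of NC (0.441% to 0.486%).

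**Figure D4:**
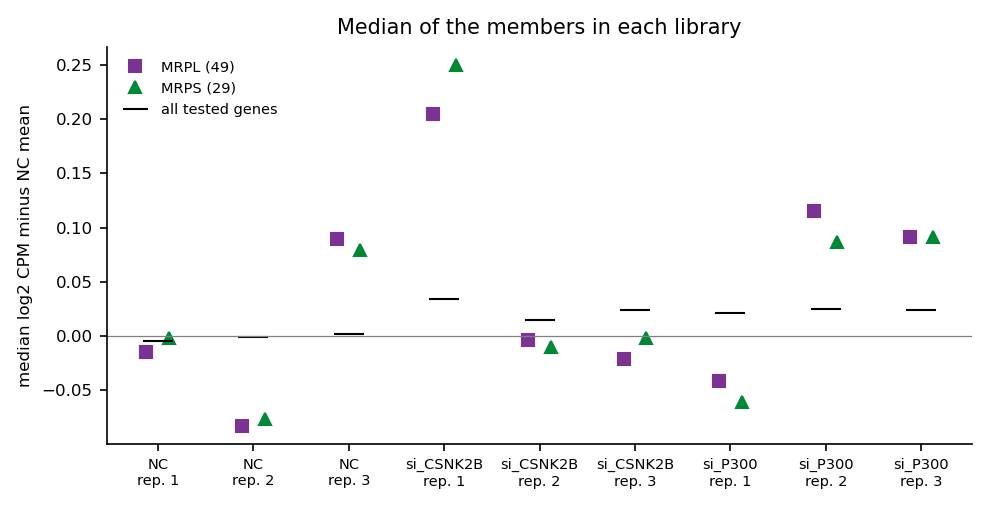
Median of the 49 MRPL and the 29 MRPS genes in each of the 9 libraries, as log2 CPM minus the NC mean of each gene, with a bar for the median of all 13129 tested genes. Both subunits shift together in a library, from -0.08 in NC replicate 2 to above 0.20 in si_CSNK2B replicate 1, while the bars for all genes stay near 0.

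GABP (an ETS factor), NRF1 and YY1 are general factors known to act on many nuclear genes for mitochondrial proteins. RefSeq promoters of build GRCh38.p14, 250 bases before to 50 after the start, were at hand for 69 members. Each was searched on both strands for the cores CCGGAAG (ETS family), GCATGCG (NRF1) and ATGGCGG (YY1), none of which contains another. The ETS core was found in 29 member promoters (42.0%), beside 19.0% of the 10585 promoters of tested genes. The NRF1 core was found in 7 (10.1%), beside 6.15%. The YY1 core was found in 24 (34.8%), beside 10.2%. A match is a description of the letters and not a bound site.

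The promoters of the 2 members that rose most in si_CSNK2B and of 2 that fell in every alternative are shown as examples, 5′ to 3′ on the strand of the gene, with the 3 cores in capitals on either strand. They lie at chr17:50373135-50373434 (MRPL27), chr11:59810729-59811028 (MRPL16), chr6:42217812-42218111 (MRPS10) and chr1:151763447-151763746 (MRPL9), all on the minus strand.
MRPL27: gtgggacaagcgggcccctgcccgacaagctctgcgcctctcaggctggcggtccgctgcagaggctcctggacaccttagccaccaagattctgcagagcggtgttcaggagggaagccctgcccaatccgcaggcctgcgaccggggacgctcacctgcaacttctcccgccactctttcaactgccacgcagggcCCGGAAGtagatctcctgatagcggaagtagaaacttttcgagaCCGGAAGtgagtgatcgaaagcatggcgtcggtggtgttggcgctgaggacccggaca
MRPL16: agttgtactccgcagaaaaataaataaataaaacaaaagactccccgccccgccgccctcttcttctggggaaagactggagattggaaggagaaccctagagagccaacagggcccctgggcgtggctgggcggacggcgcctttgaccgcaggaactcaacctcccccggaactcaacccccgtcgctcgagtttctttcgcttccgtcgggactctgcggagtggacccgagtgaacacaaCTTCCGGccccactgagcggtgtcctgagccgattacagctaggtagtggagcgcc
MRPS10: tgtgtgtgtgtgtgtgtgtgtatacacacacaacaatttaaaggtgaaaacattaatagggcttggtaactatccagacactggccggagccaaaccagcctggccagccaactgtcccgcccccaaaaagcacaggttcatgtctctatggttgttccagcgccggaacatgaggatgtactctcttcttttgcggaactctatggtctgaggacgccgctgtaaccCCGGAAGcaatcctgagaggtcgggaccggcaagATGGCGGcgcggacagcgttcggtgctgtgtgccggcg
MRPL9: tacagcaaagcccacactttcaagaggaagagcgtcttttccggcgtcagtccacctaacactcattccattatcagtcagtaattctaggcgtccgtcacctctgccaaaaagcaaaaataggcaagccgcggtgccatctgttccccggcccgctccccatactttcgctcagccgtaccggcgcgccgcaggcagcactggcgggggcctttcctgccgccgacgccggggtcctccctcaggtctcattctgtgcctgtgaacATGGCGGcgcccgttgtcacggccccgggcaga
MRPL27 has 2 ETS cores, which begin 52 and 8 bases before the start, and MRPL16 has 1, which begins 6 bases before it. MRPS10 has an ETS core 22 bases before the start and a YY1 core 12 bases after it, and MRPL9 has a YY1 core 17 bases after the start. The YY1 letters hold an ATG and lay after the start in 20 of the 24 member promoters that had them (83.3%), beside 62.4% of the 1077 such promoters of all tested genes.

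Members were also described by the YY1 core, a split chosen after the values were seen and therefore not tested. It covers only the 69 members with a promoter at hand. Left out are MRPL15, which fell in both comparisons, and MRPL10, which fell in si_CSNK2B. Also left out are MRPS28, which rose in both, and MRPL35, which rose in si_CSNK2B. Of the 24 with the core, 4 rose in si_CSNK2B (MRPL22, MRPL36, MRPL42 and MRPL50). Another 6 fell (MRPL9, MRPL58, MRPS10, MRPS18A, MRPS18B and MRPS35), and the median log2 fold change of the 24 was -0.07. MRPL50, whose core begins 26 bases after the start, rose by 0.59 in si_CSNK2B and 0.46 in si_P300. The promoters printed above do not include that of MRPL50. Of the 45 without the core, 10 rose and 1 fell (MRPL45), with a median of 0.16. In si_P300, 2 rose (MRPL50 and MRPS34) and 3 fell (MRPL9, MRPS10 and MRPS35) with the core (median -0.07). Without it, 5 rose and none fell (median 0.15). Across all tested genes with a promoter, 13.1% rose and 17.2% fell of those with it in si_CSNK2B, and 16.3% rose and 18.0% fell of those without. In si_P300 the same shares were 11.5% and 13.4% with it, and 13.6% and 14.8% without. With single libraries left out, 4 to 7 members with the core and 0 to 2 without it fell in si_CSNK2B, while 1 to 5 with it and 4 to 11 without it rose. The balance among members with the core turned with the scaling: by library size alone, 8 rose and 5 fell in si_CSNK2B, and 4 rose and 3 fell in si_P300. The CPM of YY1 itself, replicate by replicate, were 264, 269 and 274 with NC siRNA, then 219, 174 and 172 for si_CSNK2B, then 197, 196 and 197 for si_P300. Its log2 fold change was -0.51 ± 0.108 (edgeR adjusted p = 0.0035) and -0.45 ± 0.107 (edgeR adjusted p = 0.00923). Whether the level of YY1 has a part in the members' values was not tested. For the ETS core, the median was 0.02 with it and 0.17 without it in si_CSNK2B.

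The genes are spread over 21 chromosomes, with at most 8 on any one. By the GENCODE 29 annotation, 29 of 78 members (37.2%) have a coding neighbour on the opposite strand that starts within 1000 bases of their start. The same holds for 17.1% of 12778 tested coding genes. Both shares take in neighbours that face away and neighbours that start inside the gene and overlap it. MRPL46 and MRPS11 face away from each other, with starts 34 bases apart, and neither was called. EME1, 6 bases from MRPL27, stood at 0.11 ± 0.218 (SE) in si_CSNK2B (edgeR adjusted p = 0.727) while MRPL27 rose by 0.81. In si_P300, EME1 stood at 0.37 (edgeR adjusted p = 0.221) and MRPL27 rose by 0.71. The difference between these neighbours was not tested. Of 9 members called in si_CSNK2B with a tested neighbour of this kind, 3 had a neighbour called in the same direction. These were MRPL51 with NCAPD2, MRPS7 with GGA3 and MRPS18B with PPP1R10. In all 3 pairs the neighbour overlaps the member, and whether the 2 genes share reads was not tested. Of all 27 tested neighbours 7 were called, 4 of them beside a member that was not, against the 34.0% called among all tested genes.

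Some members share positions or sequence with other genes. In the same annotation 49 members overlap another gene, 38 of them on the opposite strand, and 34 have pseudogenes named after them, 75 in all. Of the 29 that overlap no other gene, 9 rose and 5 fell in si_CSNK2B (48.3%), and of the 49 that do, 7 rose and 4 fell (22.4%). Of all tested genes 34.0% were called. In si_P300 the shares called were 27.6% and 8.16%, beside 28.3% of all tested genes. The same split over all tested genes is not given here, so these shares are not shown to be particular to the members. How the counting divided such reads is not given in the sources used here, and the part of overlap in these shares was not tested. Median coding transcript length was 934 bases for the members that rose in si_CSNK2B, 1532 for those that fell and 1035 for those not called, beside 1840, 1853 and 1824 for all tested genes.

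Other parts of the mitochondrial expression system were read from lists of known roles. The shares called in these lists stand beside 34.0% of all tested genes in si_CSNK2B and 28.3% in si_P300. Mitoribosomal proteins with other names rose in 3 of 6 cases in si_CSNK2B (median 0.32): PTCD3 (0.39), CHCHD1 (0.46) and AURKAIP1 (0.36), all of the small subunit. In si_P300, PTCD3 alone of the 6 was called (0.34). Of 28 assembly factors, 5 rose and 1 fell in si_CSNK2B (21.4% called, median 0.14). In si_P300, 7 rose and 1 fell (28.6% called, median 0.13). MRM1, which methylates the large ribosomal RNA, rose by 1.00 ± 0.167 (edgeR adjusted p = 0.000918) and 1.08 ± 0.166 (edgeR adjusted p = 0.000757). Its mean rose from 9.24 ± 1.19 CPM in NC to 18.4 ± 1.24 CPM under si_CSNK2B and 19.5 ± 3.97 CPM under si_P300. MTERF4, a large subunit assembly factor, rose by 0.57 and 0.38, and METTL17, which acts on the small subunit, by 0.30 and 0.36. NGRN, needed for the large ribosomal RNA, fell by 0.66 and 0.43. TRUB2, a pseudouridine synthase, rose in si_P300 (0.42) and stood at 0.29 in si_CSNK2B without a call. Single libraries ended several of these calls in si_CSNK2B: AURKAIP1 without NC replicate 1 or 2, PTCD3 without NC replicate 1 or 3, CHCHD1 without any NC replicate or si_CSNK2B replicate 1, and METTL17 without any NC replicate or si_CSNK2B replicate 2 or 3. In si_P300 they ended the calls of PTCD3 and MTERF4 (any NC replicate or si_P300 replicate 3), METTL17 (NC replicate 2 or 3 or si_P300 replicate 3), TRUB2 (NC replicate 1 or 2) and NGRN (NC replicate 1 or 3 or si_P300 replicate 1 or 3).

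Of 17 translation factors, 1 rose and 1 fell in si_CSNK2B (11.8% called, median 0.09). In si_P300, 3 rose and 1 fell (23.5% called, median 0.09). MTRFR, a rescue factor for stalled mitoribosomes related to MRPL58, fell by 0.61 and 0.39, and SLIRP, which protects mitochondrial messages, rose by 0.58 and 0.40. MTIF3, an initiation factor, rose in si_P300 (0.39). MTRF1, a release factor, stood at 0.49 and 0.46 without a call. In si_P300 the call of MTIF3 was lost without any one NC replicate, that of MTRFR without NC replicate 1 or 3 or si_P300 replicate 3, and that of SLIRP without NC replicate 1 or 2 or si_P300 replicate 2. Of 17 genes for mitochondrial DNA upkeep, transcription and RNA processing, 6 rose and 3 fell in each comparison (52.9% called, medians 0.19 and 0.22). PRORP, the nuclease of mitochondrial RNase P, rose by 0.80 and 0.71, ELAC2, which trims tRNA ends, by 0.61 and 0.66, and PNPT1, a polynucleotide phosphorylase that degrades RNA, by 0.52 and 0.50. The 3 that fell were REXO2, which degrades short RNA (by 0.51 and 0.41), SUPV3L1, the RNA helicase that works with PNPT1 (by 0.32 and 0.29), and TFB2M, a transcription factor of mitochondrial DNA (by 0.53 and 0.37). Genes of RNA degradation thus moved in both directions. The call of SUPV3L1 was lost in both comparisons without any one NC replicate, in si_CSNK2B also without si_CSNK2B replicate 2, and in si_P300 also without si_P300 replicate 1 or 2. In si_P300 the call of REXO2 was lost without NC replicate 3 and that of TFB2M without NC replicate 1 or 3.

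The markers of mitochondrial content gave no common direction. Of 10, 2 rose and 2 fell in si_CSNK2B (40% called, median 0.10), and 1 rose and 1 fell in si_P300 (20%, median 0.12). HSPE1, the partner of the chaperonin HSP60, rose by 1.10 and 0.96, while TIMM44 of the import motor fell by 0.85 and 0.61. TOMM20, the import receptor, fell by 0.51 in si_CSNK2B and stood at -0.37 in si_P300 (edgeR adjusted p = 0.0597). Of 9 regulators, 1 rose and 3 fell in si_CSNK2B (44.4% called), and 1 rose and 2 fell in si_P300 (33.3%). PPARGC1B, a coactivator of mitochondrial biogenesis, rose by 1.31 and 1.08 from a low 5.62 CPM in NC. GABPB1, a subunit of GABP, fell by 0.35 (not called without NC replicate 3 or si_CSNK2B replicate 2) and 0.43, and NRF1 stood at -0.11 and -0.06 without a call. Over all 6 lists, the genes called in si_P300 numbered 27, and 12, 15, 12 and 16 when NC replicate 1, 2 or 3 or si_P300 replicate 3 was left out.

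Beside these, 2 larger families give a scale, both chosen after the data were seen. Of all tested genes, 34.0% were called in si_CSNK2B and 28.3% in si_P300. Of 81 tested nuclear-encoded subunits of oxidative phosphorylation, 36 rose and none fell in si_CSNK2B (44.4% called, median 0.34). In si_P300, 31 rose and 1 fell (39.5% called, median 0.24). Of 82 tested cytosolic ribosomal proteins, 3 rose and 13 fell in si_CSNK2B (19.5% called, median -0.10). In si_P300, 1 rose and 15 fell (19.5% called, median -0.16). The mitochondrial ribosomal proteins, at medians of 0.05 and 0.03, lay between those families in both comparisons, and the differences between the families were not tested.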

How the data were processed

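Cells labelled NCI-H69 were sequenced as single-end reads of 50 bp on a BGISEQ instrument, per the labels, in 3 groups of 3 libraries. Per the submitters' processing notes, HISAT and Bowtie2 (no versions or roles) and build GRCh38.p13 were used. The counting tool, annotation, filters and strand setting are not given in the sources used here. Per the file headers, the authors deposited expected counts per gene, of which 24.7% to 39.4% per library are whole numbers, and FPKM, scaled by the authors to length and depth. Another 30 value columns were not used.

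Expected counts were rounded and fitted in R 4.3.3 with edgeR 4.0.16: filterByExpr (minimum count 10), TMM scaling, and 1 quasi-likelihood model of all 9 libraries with 3 contrasts. Tests were two-sided, with Benjamini-Hochberg adjustment over the 13129 tested genes and calls at an adjusted p under 0.05. An SE is the log2 fold change over the square root of F, intervals are 95%, and CPM are counts over effective library sizes (prior count of 2 for log2 CPM). FPKM was used for levels and in limma-trend alternatives (limma 3.58.1), and DESeq2 1.42.0 was another alternative. The steps were tested on simulated data. Total counts of 13.1 to 18.3 M set the counting error.

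Replicate numbers did not pair libraries across groups. The members, lists and comparisons were chosen with earlier results of these data known, and the classes by descent and site, the promoter split and the comparison families after the values were seen. Named were both targets, up to 12 called members each way without overlap between groups, the 4 highest and lowest members by FPKM, members with a separate role, and 3 members per list with the lowest p. NRF1, MRPL2, MRPS11, REXO2, SUPV3L1, TFB2M, EME1, NCAPD2, GGA3 and PPP1R10, and the 3 members with the lowest p in the direct contrast, were named after their values were seen. Some genes of the marker lists are not reported here and were left out of the sums.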

Additional observations from a re-analysis of the deposited data

How the results depend on the processing

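Across 19 alternatives, all 25 members called in si_CSNK2B against NC and all 12 in si_P300 against NC kept their direction, and 11 and 6 of them were called in every alternative. By library size alone, without TMM, the members higher numbered 31 (median 0.18) in si_CSNK2B and 22 (median 0.14) in si_P300. On log2(FPKM + 1) with limma-trend they numbered 30 (median 0.16, large minus small median -0.025) and 24 (median 0.14), and on log2(FPKM + 0.1) 30 (median 0.17, large minus small -0.026) and 24 (median 0.14). These units carry no TMM factor. By structure, large minus small was -0.064 in si_CSNK2B and -0.14 in si_P300. Among members that overlap no other gene it was 0.12, 0.11 and, between the knockdowns, -0.058. The cause of these shifts was not tested.

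With 1 library left out at a time, the members higher numbered 6 to 17 in si_CSNK2B and 4 to 11 in si_P300, and those lower 5 to 11 and 2 to 5. The family median ran from -0.02 to 0.12, from -0.04 to 0.08 and, between the knockdowns, from -0.06 to 0.08. Large minus small ran from -0.036 to 0.033, from -0.10 to 0.021 and, between the knockdowns, from -0.039 to -0.0032. Called genes of the 6 pathway lists numbered 20 to 34 in si_CSNK2B and 12 to 29 in si_P300.

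Same-numbered libraries correlated at -0.29 to 0.06 in their deviations from group means, and others at -0.19 to 0.26, so the numbers were not taken as pairs. A replicate block gave 11 members higher and 8 lower in si_CSNK2B, and 5 higher and 4 lower in si_P300.

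The sign turned only for members that were not called. MRPL18 moved to 0.031 (si_CSNK2B) and 0.058 (si_P300) by library size alone, to 0.016 and 0.060 on log2(FPKM + 1), to 0.016 and 0.061 on log2(FPKM + 0.1), and from -0.27 to 0.011 in si_CSNK2B with libraries left out. MRPL3 moved to 0.0063 in si_CSNK2B by library size alone. MRPS33 in si_P300 moved to 0.046 by library size alone and to 0.039 and 0.043 on the FPKM scales. With libraries left out, MRPS33 ran from -0.062 to 0.11 in si_CSNK2B and from -0.16 to 0.04 in si_P300, MRPL23 from -0.32 to 0.46 and from -0.44 to 0.22, MRPS18C from -0.16 to 0.15 and MRPS36 from -0.031 to 0.16 in si_CSNK2B. MRPL23 stood at -0.0077 on log2(FPKM + 0.1). At 2 to 5 CPM its direction was not detectable at this depth.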
